A study of Homo sapiens with 6 samples.

Results

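The comparison of an EZH2 hairpin with a control hairpin in Pfeiffer cells rested on 2 of the 6 arrays of the series, the single Pfeiffer array of each arm, found by their titles. Pfeiffer is an established human line from diffuse large B-cell lymphoma, an aggressive tumour of mature B cells. RNA was profiled on a genome-wide Affymetrix expression array, and the other 4 arrays were 2 biological replicates of each arm in KARPAS-422, a second line of that tumour type. All cells were infected with lentiviral particles in medium with 10% serum and 8 µg/ml polybrene, moved after 2 days to medium with 1 µg/ml puromycin, and plated after 2 days of that selection. The treated arm (shEZH2) carried a short hairpin RNA against human EZH2 and the control arm (shNTC) a hairpin against a non-mammalian sequence, each labelled 10 days. Both arms therefore shared the virus, the drug and the time. Each arm had 1 array and each target 1 hairpin, so a Pfeiffer difference had no replicate check, no error could be attached to it, and loss of EZH2 and any other action of this hairpin cannot be told apart.

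EZH2 is the enzyme of Polycomb repressive complex PRC2, which places methyl groups on lysine 27 of histone H3 and so helps to keep genes silent. Germinal centre B cells, which divide fast while they refine their antibodies, carry much EZH2, and lymphomas of this origin often carry activating EZH2 mutations. The complex is best known in these cells for holding down cell cycle brakes and the genes of B cell exit and differentiation.

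The hairpins are shown because they are all that was meant to differ between the arms. Both are written 5′ to 3′ as DNA, with the 21-base sense stem in capitals.
shControl: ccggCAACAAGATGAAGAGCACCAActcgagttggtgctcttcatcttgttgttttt
shEZH2: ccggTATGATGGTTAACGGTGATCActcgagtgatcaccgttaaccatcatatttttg
The second arm of each stem was the exact reverse complement of the first. The stems held 42.9% G and C in shControl and 38.1% in shEZH2, and the same base stood at 8 of 21 positions when they were laid side by side from the first base.

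Signals are on a log2 scale, and every difference below is shEZH2 minus shNTC, so 1 log2 unit is a 2-fold difference. A gene was read at the probe set (a group of short probes for 1 transcript region) with the highest mean over the Pfeiffer arrays, and was called bright when that mean reached log2 8, a linear signal of 256. Of 19775 genes with a probe set of their own, 8854 were bright. KARPAS-422 values come from a limma model over all 6 arrays, in which "rose" and "fell" mean a Benjamini-Hochberg adjusted p under 0.05 with 2 arrays per arm. The same model gave the difference between lines, that is the Pfeiffer difference minus the KARPAS-422 difference; its spread came from the KARPAS-422 replicates alone, and the lone Pfeiffer arrays were assumed to vary like them.

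The Pfeiffer arrays had a B cell profile. The 5 B cell markers read (MS4A1, CD79A, CD79B, CD22 and PAX5) were all bright on average, between log2 7.84 and 14.13. None of 8 T and NK cell markers was bright, with summed linear signals of 438 in shNTC and 441 in shEZH2, and none of 5 myeloid markers was, with 152 and 119. Among 8 markers of epithelium and fibroblasts, COL1A1 (8.81 and 8.87) and EPCAM (13.33 and 12.98) were bright in both arms, and the summed signal was 11198 in shNTC and 8915 in shEZH2; their part in the results was not tested. On wider lists the T cell genes CD8A (13.49 and 13.60) and CD247 (12.21 and 12.34) also read bright in both arms, as did KRT18 (8.67 and 8.54) and CST3 (7.98 and 8.16). The signal ratio of 3′ to 5′ probes, a measure of RNA integrity, was near 0 on the log2 scale in both arms, at 0.109 and 0.126 for ACTB and −0.148 and −0.0999 for GAPDH.

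EZH2 itself read 11.65 in shNTC and 10.23 in shEZH2, a difference of −1.41, or 0.376 of the control signal. The KARPAS-422 arrays read 11.71 and 11.57 in shNTC and 10.52 and 10.55 in shEZH2, a fall of 1.11 ± 0.10 (SE, limma adjusted p = 0.00079), and the difference between lines was −0.30 (limma adjusted p = 0.42). Only 1 bright EZH2 probe set was on the array, so no second probe set checks it. EZH1, the related enzyme that can take its place in the complex, read the other way, from 9.99 to 10.48 (0.49), and its 3 bright probe sets gave 0.45 to 0.64. In KARPAS-422 EZH1 differed by 0.41 ± 0.13 (limma adjusted p = 0.0505).

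The other parts of PRC2 moved little. Of 13 bright members of a 14-gene PRC2 list, which counts EZH2 and EZH1 too, 8 read higher and 5 lower. Their median was 0.13 against 0.01 over all bright genes. Read only at genes of log2 10 or more, the median was −0.01. The core partner EED, which reads the methyl mark, differed by −0.22 and the scaffold SUZ12 by −0.12. The accessory subunits PHF1 (0.52), EPOP (0.32) and MTF2 (0.29), which help to guide the complex to its sites, read higher. Of 17 bright genes of other Polycomb complexes and of the enzymes that remove the mark, 9 read higher and 8 lower. Their median was 0.09, and −0.04 when all bright probe sets of a gene were averaged. PHC2, a PRC1 subunit, read highest (9.59 to 10.18, 0.59) and PCGF6, which defines a variant PRC1, lowest (10.65 to 10.18, −0.47).

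More genes read higher than lower at the tail of the Pfeiffer differences. Of 8854 bright genes, 77 (0.87%) read higher with shEZH2 by 1 log2 unit or more and 20 (0.226%) lower. At 0.5 log2 units the counts were 522 (5.9%) and 278 (3.14%). Over all bright genes 51.6% lay above 0 and 48.4% below, with a median of 0.01 and an SD of 0.310 over genes. The arms correlated at r = 0.979 (Spearman coefficient 0.977) over these genes, which are not independent replicates. Just inside the 1-unit limit were LMO2 (1.01), RGS9 (1.01), GALNT14 (−1.01) and ZBED2 (−1.01), and just outside it HLA-DMB (0.998), SPATA20 (0.992), LMNB1 (−0.995) and KHDRBS3 (−0.993).

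**Figure D1:**
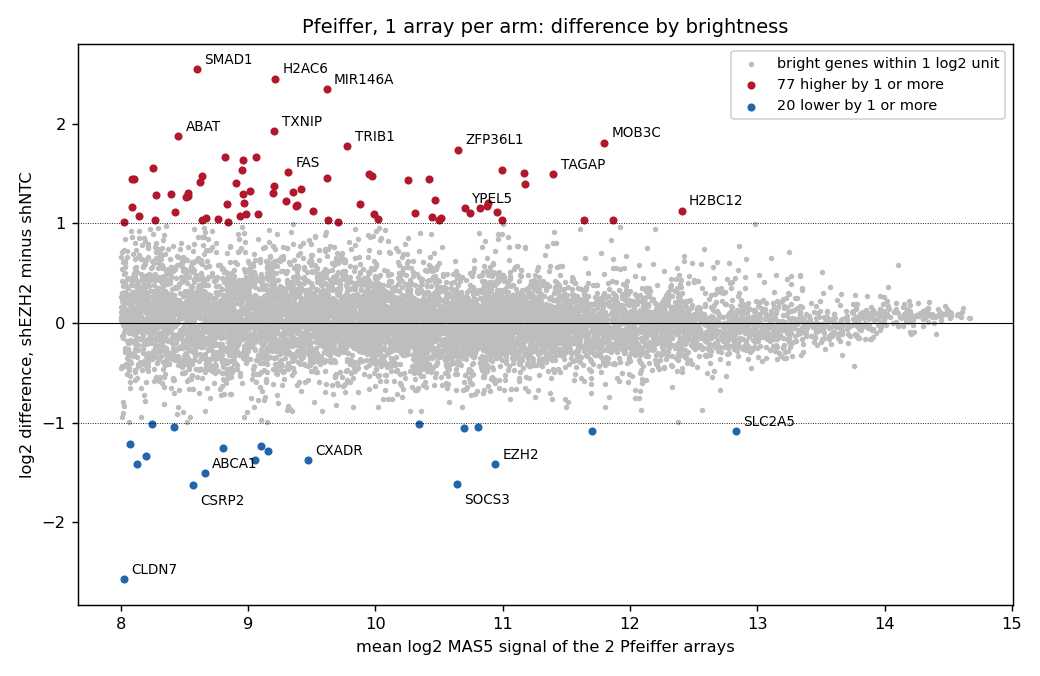
Difference between the Pfeiffer arms (shEZH2 minus shNTC, log2 units, vertical axis) against the mean log2 signal of both arrays (horizontal axis), 1 point per bright gene. Red points are the 77 genes higher by 1 log2 unit or more and blue points the 20 lower, with SMAD1 (2.54) at the top and CLDN7 (−2.57) at the bottom; no error bars exist because each arm had 1 array.

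How large a difference 2 arrays of the same arm can show was read from the KARPAS-422 replicates. Among 8163 genes bright in its shNTC arm, 55 (0.674%) differed between replicate arrays by 1 log2 unit or more, 7 one way and 48 the other. Among 8522 genes bright in its shEZH2 arm 7 did (0.0821%), against 97 in the Pfeiffer comparison (1.10%). At 0.5 log2 units, 369 (4.52%) and 262 (3.07%) of those genes differed between the replicates, and 800 of 8854 (9.04%) between the Pfeiffer arms. Over the same 8854 genes, some of them dim in KARPAS-422, 793 (8.96%) and 601 (6.79%) differed between its shNTC and shEZH2 replicates. At 1 unit 264 and 191 did, more than the 97 of the Pfeiffer comparison. A single gene of the size listed here can therefore also differ between replicates. With KARPAS-422 arms set against each other by their means, 348 genes bright there were higher by 1 unit or more and 42 lower.

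As an internal check, genes with 2 or more bright probe sets were asked whether all gave one sign. Over all 3956 such genes 2492 did (63.0%). Where the brightest probe set differed by 0.5 log2 units or more, 230 of 255 did (90.2%, Wilson 95% interval 85.9 to 93.3, counting error only), and past 1 unit 30 of 31. The exception was COCH, an extracellular matrix protein gene named after its values were seen, whose probe sets differed by −1.08, −0.72 and 0.25. No gene had bright probe sets of opposite sign that each passed 0.5. The brightest and second brightest probe sets correlated at r = 0.654 (Spearman coefficient 0.599) across the 3956 genes. Differences between the KARPAS-422 shNTC replicate arrays met the check in 130 of 145 genes past 0.5 (89.7%), and those between the shEZH2 replicates in 63 of 95 (66.3%). Past 1 unit, 31 of 31 genes met it between the shNTC replicates and 2 of 3 between the shEZH2 replicates. Agreement can thus occur between arrays of one arm, and what it owes to the hairpin was not tested.

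**Figure D2:**
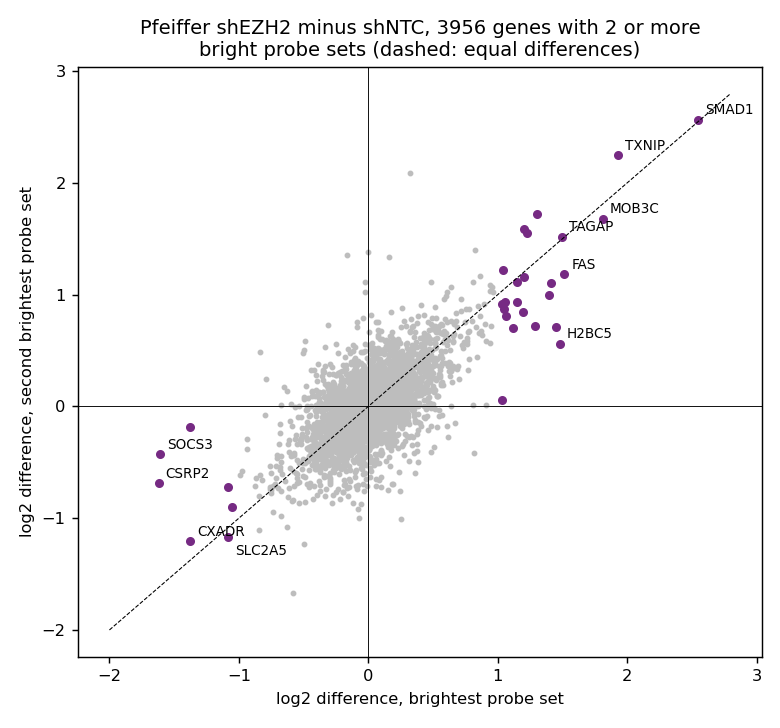
Pfeiffer difference (shEZH2 minus shNTC, log2 units) at the brightest probe set (horizontal) and the second brightest (vertical) of 3956 genes with 2 or more bright probe sets. The purple points, past 1 log2 unit at the brightest probe set, lie up and to the right or down and to the left of the origin, and r over all points was 0.654.

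SMAD1, which carries signals from bone morphogenetic protein receptors to the nucleus, read higher by more than any other bright gene. It read 7.33 in shNTC and 9.87 in shEZH2, a 5.83-fold difference (2.54), and its second bright probe set gave 2.57. With 64 added to each linear value, which damps dim readings, the difference was 2.16. In KARPAS-422 the gene was dim on all 4 arrays (1.62 to 4.55) and its change was not called (1.13 ± 0.92, limma adjusted p = 0.41).

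MOB3C, a kinase adaptor of the MOB family, read 10.89 and 12.70 (1.81, second probe set 1.68), and it rose in KARPAS-422 (0.81 ± 0.15, limma adjusted p = 0.0089). TXNIP binds thioredoxin and limits glucose uptake. It read 8.24 in shNTC and 10.17 in shEZH2, a 3.80-fold difference, and its 3 probe sets gave 1.62 to 2.25. The KARPAS-422 arrays all read TXNIP above the Pfeiffer arrays (12.98 and 12.61 against 13.63 and 13.33), with a rise of 0.69 ± 0.15 (limma adjusted p = 0.017). The TXNIP difference between lines, 1.24 ± 0.26, did not pass (limma adjusted p = 0.074).

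TAGAP, a GTPase activating protein of activated lymphocytes, was read by several probe sets. It gave 10.65 and 12.14, with all 5 bright probe sets between 1.36 and 1.87, and it rose by 2.88 ± 0.18 in KARPAS-422 (limma adjusted p = 0.00018). ESR2, the estrogen receptor beta gene, read 8.36 and 9.57 (probe sets 1.20 and 1.59) and rose by 1.43 in KARPAS-422 (limma adjusted p = 0.0015). YPEL5, a subunit of the CTLH ubiquitin ligase, read 10.13 and 11.28 (1.15 and 1.11) and rose by 2.26 there (limma adjusted p = 0.00013). GLCCI1, a glucocorticoid-induced transcript, read 8.54 and 9.85 (1.31 and 1.72) and rose by 0.95 (limma adjusted p = 0.0056). Each of these genes was thus higher in the treated arm of both lines.

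Of the other leading genes with agreeing probe sets, GSAP alone was called in KARPAS-422. DST, a cytoskeletal linker, read 8.68 and 9.91 (1.23 and 1.56 at 2 probe sets). SNCAIP, whose protein binds alpha-synuclein, read 10.28 and 11.49 (1.20 and 1.16). ATP2B1, a calcium pump of the cell membrane, read 11.44 and 12.40 with 3 probe sets between 0.96 and 1.03. DCBLD1 (1.15), RPS6KA2, a ribosomal S6 kinase (0.95), and NAPSB (0.94) also read higher at 2 probe sets each. GSAP read 0.94 higher and rose in KARPAS-422 (3.18 ± 0.45, limma adjusted p = 0.0039) from dim levels of 3.07 and 4.14.

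**Figure D3:**
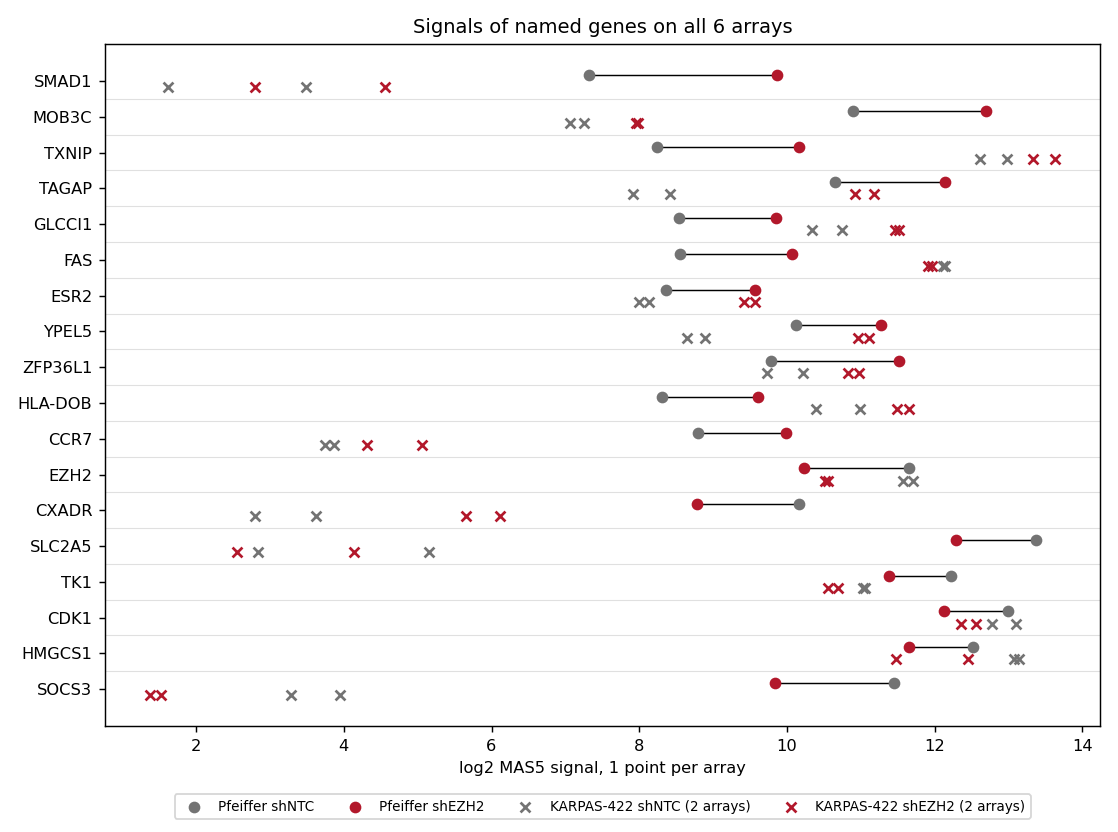
Log2 signal of 18 named genes on all 6 arrays, 1 mark per array: circles are the 2 Pfeiffer arrays, joined by a line, and crosses the 4 KARPAS-422 arrays, grey for shNTC and red for shEZH2. SMAD1, CCR7 and SOCS3 are dim in KARPAS-422, TXNIP and FAS are brighter there than in Pfeiffer, and EZH2 is lower in the shEZH2 arm of both lines.

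Genes with 1 bright probe set have no second reading, and 6 led upward. The histone gene H2AC6 read 7.99 and 10.44 (2.45). A probe set annotated to MIR146A read 8.45 in shNTC and 10.79 in shEZH2 (2.35), and 1.95 to 3.82 on the KARPAS-422 arrays. MIR146A is the locus of a microRNA that damps Toll-like receptor and NF-kappaB signalling by pairing with TRAF6 and IRAK1. The array reads labelled long RNA and not the mature microRNA, whose RefSeq sequence (GRCh38.p14, chr5:160485372-160485393, plus strand) is given with the seed, bases 2 to 8, in capitals.
hsa-miR-146a-5p: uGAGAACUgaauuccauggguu
ABAT, which breaks down the transmitter GABA, read 7.52 and 9.39 (1.87) and rose by 3.99 ± 0.20 in KARPAS-422 (limma adjusted p = 8.8e-05). TRIB1, a pseudokinase that brings targets to the ubiquitin ligase COP1, read 8.89 and 10.67 (1.78). ZFP36L1, which binds AU-rich messages and speeds their decay, read 9.78 and 11.52 (1.74), or 1.00 at a dim probe set outside the _s_at and _x_at kinds, and it rose in KARPAS-422 (0.93 ± 0.17, limma adjusted p = 0.0092). IL16, a chemoattractant for CD4+ cells, read 7.98 and 9.65 (1.67), or 0.59 at such a dim probe set.

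Genes that restrain growth mostly read higher. Of 28 quiescence and growth restraint factors on the array 19 were bright, and 16 of these lay above 0. The median was 0.38 against 0.01 over all bright genes, with 6 members higher by 0.5 or more and none lower. TXNIP, ZFP36L1 and YPEL5 led the list, followed by KLF12 (8.47 in shNTC, 0.96), PIK3IP1, an inhibitor of PI3 kinase (8.81, 0.78), and BTG1, an antiproliferative factor (12.89, 0.71). TOB1 (−0.35), MXI1 (−0.27) and CCNG2 (−0.08) read lower, and the transcription factor FOXO1 differed by 0.02. In KARPAS-422, 10 of the 19 rose and 1 fell, against 14.5% and 17.1% of all bright genes, with a median of 0.56. Between its replicate arrays the list's median was −0.29 (shNTC) and 0.06 (shEZH2), so arrays of 1 arm can also shift this list. Of the 11 members with a second bright probe set, 7 had one sign.

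A list of CDK inhibitors, D cyclins and their partners, which holds both brakes and drivers of the cycle, did not move together. Of its 8 bright members 3 read higher and 5 lower, with a median of −0.05, or 0.19 over those of log2 10 or more. Among the brakes, CDKN1A, the p21 gene, read 8.97 in shNTC and differed by −0.28, CDKN1B by −0.08 and RB1 by −0.18. CDKN2A, the p16 and ARF locus, differed by 0.42 from 11.10. The RB-related pocket protein gene RBL2 differed by 0.48 from 10.90, though its second probe set gave 0.01. Among the drivers, CDK6 read 12.37 and 12.93, with 4 probe sets between 0.46 and 0.66, CCND3 differed by −0.36 and CDK4 by −0.03.

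Cell division genes read lower almost throughout. All 40 genes of a G2 and M phase list were bright and 39 of them lay below 0, against 48.4% of all bright genes. Their median was −0.43; 14 were lower by 0.5 or more, against 3.14% of all bright genes, and none passed 1 unit in either direction. The 1 member above 0 was TACC3, a spindle protein (0.02). CDK1, the kinase that starts mitosis, read 12.998 in shNTC and 12.13 in shEZH2 (−0.87), with 3 probe sets between −0.87 and −0.60. AURKB, the chromosomal passenger kinase, read 10.45 and 9.60 (−0.85). The mitotic kinase PLK1 differed by −0.76 from 11.44 and the proliferation antigen MKI67 by −0.68 from 11.14. All 19 members with a second bright probe set had one sign. In KARPAS-422, 27 of the 40 fell (17.1% of all bright genes did) and none rose (14.5% did), with a median of −0.48. No member was called different between lines, where only 0.316% of all bright genes were called higher in Pfeiffer and 1.01% lower.

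The S phase and E2F target list was alike in size. All 43 of its genes on the array were bright, 42 lay below 0, the median was −0.43 and 12 were lower by 0.5 or more. TK1, thymidine kinase, read 12.22 and 11.38, with its probe sets at −0.84 and −0.80. E2F2, a transcription factor of S phase entry, read 10.28 and 9.62 (−0.66), and the primase subunit PRIM1 differed by −0.64 from 10.72. The DNA polymerase gene POLD1 differed by −0.62. CHAF1B, a histone chaperone subunit, was the 1 member above 0 (0.01), and the replication licensing genes MCM2 (−0.19) and MCM5 (−0.20) were among the smaller differences. All 19 members with a second bright probe set had one sign. In KARPAS-422, 37 fell (17.1% of all bright genes did) and 1 rose (14.5% did), and the median was −0.54. None was called different between lines, where only 0.316% of all bright genes were called higher in Pfeiffer and 1.01% lower. For scale, the list medians between KARPAS-422 replicate arrays were 0.14 (shNTC) and −0.05 (shEZH2) for G2 and M, and −0.04 and −0.09 for S phase. A lower share of dividing cells and less RNA per cell cannot be told apart in bulk RNA.

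Promoters of these lists were searched on both strands for known cell cycle motifs in the 250 bases before a gene's start. The windows of the RefSeq table also hold 50 bases after the start, which were not searched. The cell cycle homology region (CHR, written TTTGAA or TTCGAA) is bound by the DREAM and MYB complexes. It occurred in 19 of 33 G2 and M promoters that could be read (57.6%), in 9.95% of 7429 bright genes' promoters and in 14.6% of all 27305. The CCAAT box, bound by NF-Y, occurred in 78.8% of the G2 and M promoters, 37.2% of the bright ones and 33.0% of all. A core of E2F sites, GCGGGAA, occurred in 14 of 38 S phase promoters (36.8%), 9.80% of the bright ones and 5.59% of all. These are matches of letters, not measured binding, and no test was made of them.

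Shown are the 250 bases upstream of the start of the 3 genes with the largest decreases among 17 G2 and M promoters that held both motifs, and of PRIM1, which had the largest among the 14 S phase promoters with the E2F core. The build is GRCh38.p14; capitals mark CHR and CCAAT in the first 3 and the E2F core, here on the opposite strand, in PRIM1. In MKI67 a CHR match and a CCAAT match on the opposite strand overlap. The windows are CDK1 at chr10:60778081-60778330 (plus strand), PLK1 at chr16:23678639-23678888 (plus), MKI67 at chr10:128126424-128126673 (minus) and PRIM1 at chr12:56752324-56752573 (minus), each written along the gene's own strand.
CDK1: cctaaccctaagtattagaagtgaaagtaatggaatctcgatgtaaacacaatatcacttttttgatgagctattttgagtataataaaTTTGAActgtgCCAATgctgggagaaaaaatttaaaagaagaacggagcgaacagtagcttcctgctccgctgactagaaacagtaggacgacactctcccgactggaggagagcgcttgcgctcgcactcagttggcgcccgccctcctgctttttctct
PLK1: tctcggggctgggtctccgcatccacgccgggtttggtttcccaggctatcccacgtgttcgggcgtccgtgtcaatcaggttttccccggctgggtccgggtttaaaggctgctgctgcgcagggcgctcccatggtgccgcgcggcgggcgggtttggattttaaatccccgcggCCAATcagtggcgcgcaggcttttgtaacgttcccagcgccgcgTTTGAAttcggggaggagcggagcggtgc
MKI67: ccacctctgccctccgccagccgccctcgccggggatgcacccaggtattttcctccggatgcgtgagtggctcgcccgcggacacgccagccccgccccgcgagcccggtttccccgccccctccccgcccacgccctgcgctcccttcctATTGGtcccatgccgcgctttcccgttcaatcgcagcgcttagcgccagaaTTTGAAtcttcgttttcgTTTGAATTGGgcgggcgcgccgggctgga
PRIM1: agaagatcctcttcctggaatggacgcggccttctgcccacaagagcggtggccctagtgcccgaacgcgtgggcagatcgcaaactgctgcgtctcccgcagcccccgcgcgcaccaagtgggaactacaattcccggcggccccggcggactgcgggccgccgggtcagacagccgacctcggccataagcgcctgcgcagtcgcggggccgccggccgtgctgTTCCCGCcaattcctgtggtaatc

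B cell identity genes read unevenly. Of 13 bright pan B cell genes 10 lay above 0, with a median of 0.18. FCRLA, a B cell Fc receptor-like gene, read 7.89 and 9.16 (1.27), and CD79A, a signalling chain of the B cell receptor, 8.17 and 9.13 (0.95). Its partner CD79B went from 13.98 to 13.55 (−0.43), and CD22 (−0.41) and VPREB3 (−0.41) read lower too. CD79A was called different between lines (1.05, limma adjusted p = 0.029). Of 15 bright germinal centre genes 11 lay above 0 (median 0.18) and 5 were higher by 0.5 or more. Between KARPAS-422 replicate arrays the germinal centre median was −0.17 (shNTC) and 0.03 (shEZH2), and the pan B cell median −0.11 and −0.09. LMO2 read 9.20 and 10.21 (1.01, but 0.38 at a dim probe set), GCSAM differed by 0.79 and BCL6, the master repressor of that stage, by 0.35. S1PR2, a receptor that confines germinal centre B cells, differed by −0.50 and the surface peptidase MME by −0.43.

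Plasma cell genes showed no common direction. Of 18 bright members 10 lay above 0 and 8 below, with a median of 0.03. PRDM1, the regulator of plasma cell fate, differed by 0.10 and IRF4 by 0.25. CD59, which blocks complement lysis, read 10.54 and 11.38, and its 4 probe sets gave 0.74 to 1.37. DERL3, of protein disposal in the endoplasmic reticulum, read 9.01 and 8.07, with its probe sets at −0.94 and −0.29.

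Genes of B cell activation and the germinal centre light zone, where B cells meet antigen and T cells, read higher more often. Of 38 on the array 27 were bright, 21 of these lay above 0, and the median was 0.32; among those of log2 10 or more it was 0.21. There were 11 higher by 0.5 or more and 1 lower, IER3 (9.59 in shNTC, −0.72). FAS, the death receptor, led with 8.56 in shNTC and 10.07 in shEZH2. CCL22, a chemokine that draws T cells, read 8.35 and 9.68 (1.33). CCR7, the receptor that brings B cells to the T zone, read 8.79 and 9.98 (1.19). The NF-kappaB feedback gene TNFAIP3 (9.54, 0.87) and TNF (8.48, 0.77) also read higher. CD44, an adhesion receptor of activated cells, read 12.78 and 13.43, with all 9 probe sets higher, between 0.33 and 0.79. On the KARPAS-422 arrays CD44 lay under the array median throughout (1.55 to 4.996), so a fall that limma called there is a difference between dim readings. MYC, itself on this list, differed by −0.20 from 12.38. In KARPAS-422, 9 of the 27 rose (14.5% of all bright genes did) and 2 fell (17.1% did), CD44 among them, and the median was −0.09. Between its replicate arrays the list's median was −0.12 (shNTC) and 0.07 (shEZH2).

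FAS set the lines apart. Its 4 bright Pfeiffer probe sets gave 0.96 to 1.51, and all 4 are of the _s_at or _x_at kind, which can match related transcripts. In KARPAS-422 it read 12.11 and 12.14 in shNTC and 11.96 and 11.91 in shEZH2, above both Pfeiffer arrays in either arm and with no call (−0.19 ± 0.09, limma adjusted p = 0.17). The difference between lines was 1.70 ± 0.16 (limma adjusted p = 0.0060). It was not called once either KARPAS-422 shEZH2 array was left out.

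Other genes of cell death moved less. Of 17 bright pro-apoptotic and death receptor genes 11 lay above 0, with a median of 0.05. TNFRSF21, death receptor 6, read 7.76 and 8.61 (0.86), CASP9, the initiator caspase of the mitochondrial route, differed by 0.51, and TNFRSF10A, a TRAIL receptor, by −0.56. Of 9 bright anti-apoptotic genes 7 lay above 0, between −0.09 and 0.33 (median 0.09), with BCL2A1 highest (13.19 and 13.52). XIAP differed by 0.21, with 4 probe sets higher and 1 lower. Of 16 p53 target genes 8 lay on each side (median −0.08). TP53INP1, a stress-induced nuclear protein, read 7.90 and 9.37 (1.48) and rose by 1.36 in KARPAS-422 (limma adjusted p = 0.00085), while GADD45B (−0.62) and AEN (−0.59) read lower.

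Receptors and signalling genes held further differences. Of 20 bright B cell receptor signalling genes 16 lay above 0, with a median of 0.12. INPP5D, the phosphatase SHIP1, read 9.16 and 10.05 (0.89, or 0.48 at a dim probe set) and rose in KARPAS-422 by 0.47 (limma adjusted p = 0.022). FCRL3, an Fc receptor-like inhibitor, read 8.30 and 9.03 (0.73). Of 21 bright cytokine receptor genes 15 lay above 0 (median 0.18). By 0.5 or more, 7 were higher (5.9% of all bright genes were) and none was lower (3.14% were). The median was 0.09 among those of log2 10 or more, and 0.11 (shNTC) and 0.03 (shEZH2) between KARPAS-422 replicate arrays. IL10RA, a chain of the interleukin 10 receptor, read 11.73 and 12.67 (0.94) and rose in KARPAS-422 by 1.13 (limma adjusted p = 0.0017). TNFRSF14, the HVEM receptor, read 7.90 and 8.78 (0.89) and rose by 1.28 there (limma adjusted p = 0.042), and IL4R differed by 0.76 from 10.46.

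SOCS3, the feedback inhibitor of cytokine signalling through STAT3, read 11.45 and 9.83 (−1.61). Its 3 bright probe sets gave −1.61, −1.55 and −0.43, so all were lower but unequal. In KARPAS-422 it read 3.94 and 3.28 in shNTC and 1.52 and 1.38 in shEZH2, under the median signal of each array, so its level and change there could not be read, although limma called a fall. STAT3 itself differed by −0.33 from 13.44 and PIM3 by −0.36, and the whole JAK-STAT feedback list of 13 bright genes had a median of −0.11 with 5 above 0.

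Of 12 bright homing receptor genes 9 lay above 0 (median 0.21). Between KARPAS-422 replicate arrays this list's median was −0.16 (shNTC) and −0.07 (shEZH2). GPR183, which guides activated B cells, differed by 0.60 from 12.48 and CXCR4 by −0.01 from 13.79. Among 15 bright integrin and adhesion genes 9 lay above 0 (median 0.02); the tetraspanin CD9 read 10.71 and 9.83 (−0.88), but another probe set, brighter over all 6 arrays, gave −0.21. Of 13 bright homeobox and developmental regulators, known Polycomb targets as a class, 10 lay above 0 with a median of 0.17 and none passed 0.5. PAX8 (9.59, 0.43) and HOXB7 (10.21, −0.41) were at its ends, and the other 20 on the array were not bright. The wider lists of T and NK cells, of myeloid cells and of non-blood tissue had 2, 1 and 3 bright members with medians of 0.12, 0.18 and −0.13.

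Antigen presentation genes read modestly higher. Of 16 MHC class II genes, which show peptides to CD4+ T cells, 14 lay above 0 and the median was 0.27, or 0.39 when all bright probe sets of a gene were averaged. HLA-DOB, a modulator of peptide loading, read 8.31 and 9.60 (1.29), but a dim probe set of the gene outside the _s_at kind gave −0.06. HLA-DMB, which loads peptides, read 12.48 and 13.48 (0.998), and the master activator CIITA differed by 0.52 from 10.61. HLA-DRA, at 14.47, differed by 0.08. In KARPAS-422, 8 of the 16 rose (14.5% of all bright genes did) and none fell (17.1% did), with a median of 0.43. Between its replicate arrays the list's median was −0.08 (shNTC) and −0.12 (shEZH2).

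MHC class I genes, which show peptides to CD8+ T cells, had a smaller response than in KARPAS-422. Of 17 bright members 14 lay above 0 with a median of 0.20, and 1 passed 0.5, HLA-F (12.59 and 13.23, with 3 probe sets between 0.36 and 0.64). TAP1, of the peptide transporter, differed by 0.46. In KARPAS-422, 12 rose (14.5% of all bright genes did) and 2 fell (17.1% did), and the median was 0.87. Between its replicate arrays the list's median was −0.08 (shNTC) and −0.16 (shEZH2). The difference between lines was called for 5 members, all smaller in Pfeiffer, against 1.01% of bright genes called that way. They were HLA-B (0.19 in Pfeiffer, 1.44 in KARPAS-422), HLA-E (0.23, 1.33), HLA-F (0.64, 1.66), HLA-G (0.37, 1.63) and NLRC5, the class I activator (0.42, 2.04). HLA genes are near copies of each other and share probes, so these are not separate readings.

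Interferon-stimulated genes had more members called different between lines than any other of the 34 lists. Of 45 on the array 21 were bright in Pfeiffer, 16 lay above 0, the median was 0.28 and none passed 1 unit; among members of log2 10 or more the median was −0.04. IRF7, which amplifies interferon production, read 8.21 and 8.93 (0.72). IRF9, the DNA-binding subunit of an interferon-activated factor, read 9.43 and 10.07 (0.65). In KARPAS-422 all 21 rose, against 14.5% of all bright genes, with a median of 1.55. Between its replicate arrays the list's median was −0.08 (shNTC) and −0.20 (shEZH2). The difference between lines was called for 10 of the 21 genes, all smaller in Pfeiffer, against 1.01% of bright genes. IFIH1, the sensor MDA5, read 9.18 and 9.51 in Pfeiffer, while in KARPAS-422 it read 4.56 and 5.52 in shNTC and 10.51 and 10.70 in shEZH2. USP18, a brake on interferon signalling, read 8.12 and 8.25 in Pfeiffer and rose by 4.07 ± 0.17 in KARPAS-422 (limma adjusted p = 5.1e-05). EIF2AK2, the kinase PKR, differed by −0.32 in Pfeiffer.

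Histone genes split. Of 30 on the array 12 were bright, and 5 read higher by 0.5 or more, 4 of these past 1 unit, while 7 lay below 0; the median was −0.05. H2AC6, H2BC5 (9.24 and 10.71, with its probe sets at 1.48 and 0.56), H2BC12 (11.84 and 12.97) and H1-2 (8.94 and 10.07) were the 4. Their messages are near copies of each other, so probe sets can share signal. In KARPAS-422 H2AC6 rose from dim readings of 2.51 and 3.97 in shNTC to 10.86 and 10.81 in shEZH2, so the size of its rise, and of its difference between lines, rests on a dim control level. H2BC5 rose there by 2.48 and H2BC12 by 0.58 (limma adjusted p of 5.1e-05 and 0.0026). The linker histone H1-10 (−0.83), H4C11 (−0.51) and H2AX (−0.27) read lower.

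Growth and metabolic lists leaned lower by small amounts. Of 26 bright genes of cholesterol and fatty acid synthesis 22 lay below 0 with a median of −0.34. HMGCS1, an early enzyme of the sterol pathway, read 12.52 and 11.65, with its probe sets at −0.88 and −0.71, and it fell by 1.14 ± 0.27 in KARPAS-422 (limma adjusted p = 0.022). SCD, the fatty acid desaturase, read 12.44 and 11.69, with 4 probe sets from −0.88 to −0.13. The KARPAS-422 shEZH2 replicates differed in this list by a median of 0.46, more than the Pfeiffer arms did. Of 27 ATF4 target and amino acid response genes 23 lay below 0 (median −0.19), led by the transporter SLC7A5 (−0.57) and the serine synthesis enzyme PHGDH (−0.50). The KARPAS-422 shNTC replicates differed here by a median of −0.97. Of 29 MYC target and ribosome biogenesis genes 26 lay below 0 (median −0.16), with PPAT, of purine synthesis, lowest (−0.55 and −0.48 at 2 probe sets, 0.19 at a dimmer one) and RRP9 next (−0.39).

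The remaining lists stayed near 0. Of 24 glycolysis and hypoxia genes 16 lay below 0 (median −0.10), with VEGFA, a growth factor for vessels, at −0.80 and −0.07 on its probe sets, and ENO2 at −0.74. Of 24 unfolded protein response genes 17 lay below 0 (median −0.09), and WFS1 (7.61, 0.85) and HERPUD1 (13.36, 0.30) read higher. Of 12 heat shock genes 10 lay below 0 (median −0.10), between DNAJB1 at −0.32 and HSP90AA1 at 0.09. The KARPAS-422 replicates differed in this list by a median of 0.18 (shNTC) and 0.12 (shEZH2), more than the Pfeiffer arms did. Of 24 ribosomal protein genes 22 lay above 0, by at most 0.19 (RPL12), with a median of 0.07 that turned to −0.01 under quantile normalization. Medians of −0.13 (shNTC) and −0.16 (shEZH2) stood between the KARPAS-422 replicates here. Of 28 respiratory chain and ATP synthase genes 19 lay above 0 (median 0.02, and −0.00 under quantile normalization), from NDUFB3 at −0.20 to ATP5MC1 at 0.20. In KARPAS-422 12 of the 24 ribosomal protein genes and 19 of the 28 respiratory genes fell, against 17.1% of all bright genes, and none rose.

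**Figure D4:**
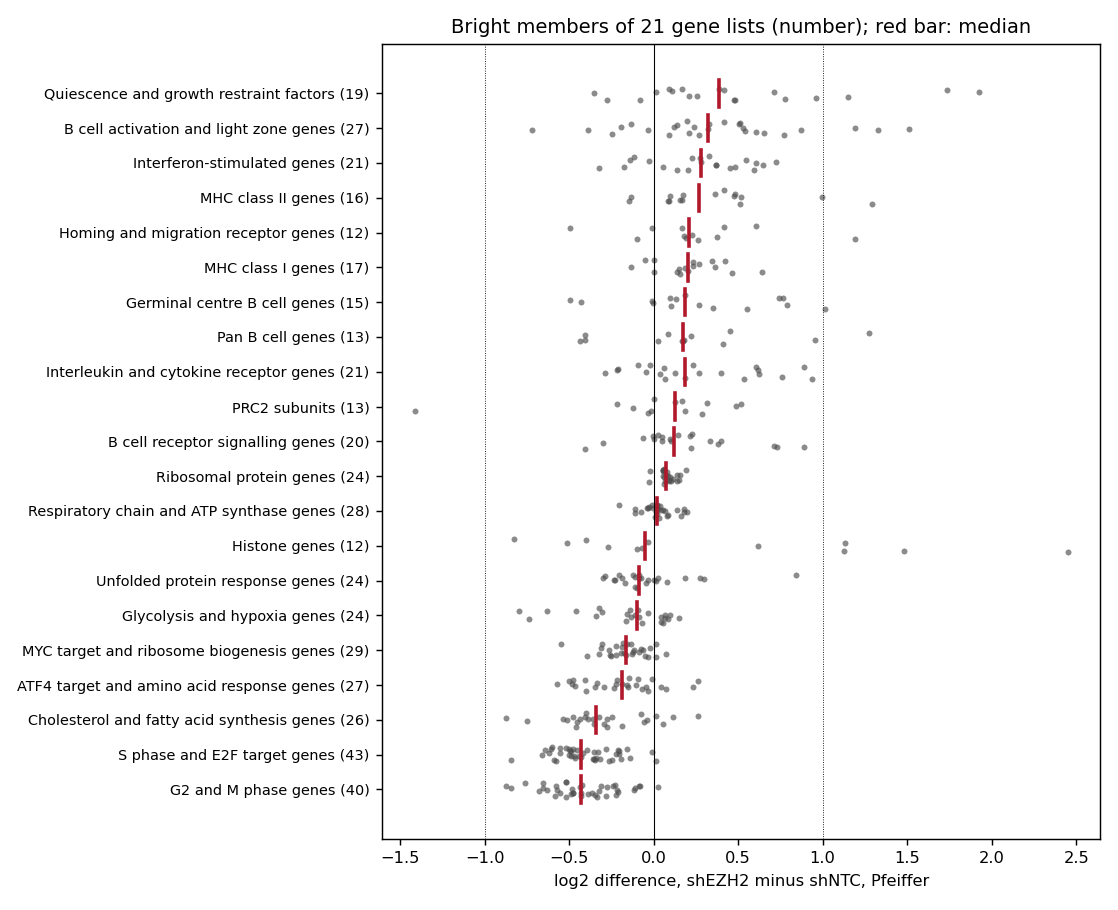
Pfeiffer difference (shEZH2 minus shNTC, log2 units, horizontal axis) of every bright member of 21 of the 34 gene lists, 1 point per gene; red bars are list medians and dotted lines mark 1 log2 unit. The S phase and G2 and M lists, both with a median of −0.43, lie almost wholly below 0, while the quiescence list (0.38) and the activation list (0.32) lie mostly above it.

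Among genes that read lower, those with 2 or more agreeing probe sets are given first. CXADR, an adhesion protein and adenovirus receptor, read 10.16 and 8.79 (−1.37 and −1.20). SLC2A5, the fructose transporter, read 13.38 and 12.29 (−1.08 and −1.17). ESRP1, an epithelial splicing regulator, read 11.23 and 10.17 (−1.05 and −0.90). TJP1, a tight junction scaffold, read 13.04 and 12.37 (−0.67 and −0.98), and PDGFRA, a growth factor receptor, read 12.41 and 11.66 (−0.75 and −0.74). These 5 genes are known mostly from epithelial, stromal or absorptive cells. They were bright in Pfeiffer, and on the KARPAS-422 shNTC arrays they read between 2.24 and 5.15. CXADR was called as risen there by limma, but its 4 KARPAS-422 values (6.11 at most) all lay under their array's median, and its difference between lines did not pass (limma adjusted p = 0.055).

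Further genes also read lower at each of their bright probe sets. NCAPG, a condensin subunit, read 11.19 and 10.49, WDR76 9.50 and 8.76, and DDX51, an RNA helicase of ribosome assembly, 9.47 and 8.63. The nucleobase transporter SLC43A3 read 10.44 and 9.68. These 4, and TK1 and HMGCS1 above, also fell in KARPAS-422 (limma adjusted p between 0.0027 and 0.022). TRIB2, a pseudokinase related to TRIB1, read 11.87 and 11.11 in Pfeiffer (−0.76 and −0.74) and differed by 0.22 in KARPAS-422, a called difference between lines of −0.97 ± 0.15 (limma adjusted p = 0.029). PTAFR, the platelet activating factor receptor, read 11.02 and 10.35 with 3 probe sets from −0.90 to −0.67. WDPCP, a planar polarity effector, read 11.04 and 10.40 and rose in KARPAS-422 (0.56, limma adjusted p = 0.025). CSRP2, a LIM domain protein, read 9.38 and 7.76 (−1.62), but its other probe set gave −0.69.

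With a single bright probe set, CLDN7, a tight junction claudin, read 9.31 and 6.74 (−2.57, or −2.03 with 64 added to each linear value). ABCA1, which exports cholesterol from cells, read 9.42 and 7.91 (−1.51). The calcium channel subunit CACNG4 differed by −1.42, RIPOR2 by −1.33 and the potassium chloride cotransporter SLC12A7 by −1.28.

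Differences in Pfeiffer and KARPAS-422 share no array, but they share both hairpins. Across the 8854 bright genes they correlated at r = 0.324 (Spearman coefficient 0.362), over genes that are not independent. Of the 77 genes higher by 1 unit in Pfeiffer, 37 rose in KARPAS-422 (48.1%, or 2.87% of the 1287 bright genes that rose there), against 14.5% of all bright genes, and 2 fell, CASTOR2 and LINC01016, both named after their values were seen. Of the 20 lower genes 5 fell, against 17.1% of all bright genes, and 5 rose. Those that fell were EZH2, SOCS3, COCH, F12 and TACO1, and those that rose ABCA1, CXADR, GALNT14, RIPOR2 and SPP1, where the genes outside the naming rule were again taken after their values were seen. SOCS3 and CXADR lay under the array median on all 4 KARPAS-422 arrays, so 4 of each are left without them, while none of the 37 was that dim. At 0.5 units 212 of 522 higher genes rose (40.6%, or 16.5% of those that rose) and 89 of 278 lower genes fell (32.0%, or 5.89% of the 1512 that fell). Read the other way, 75.1% of genes that rose in KARPAS-422 lay above 0 in Pfeiffer, with a median of 0.17, and 26.5% of those that fell there, with a median of −0.11.

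**Figure D5:**
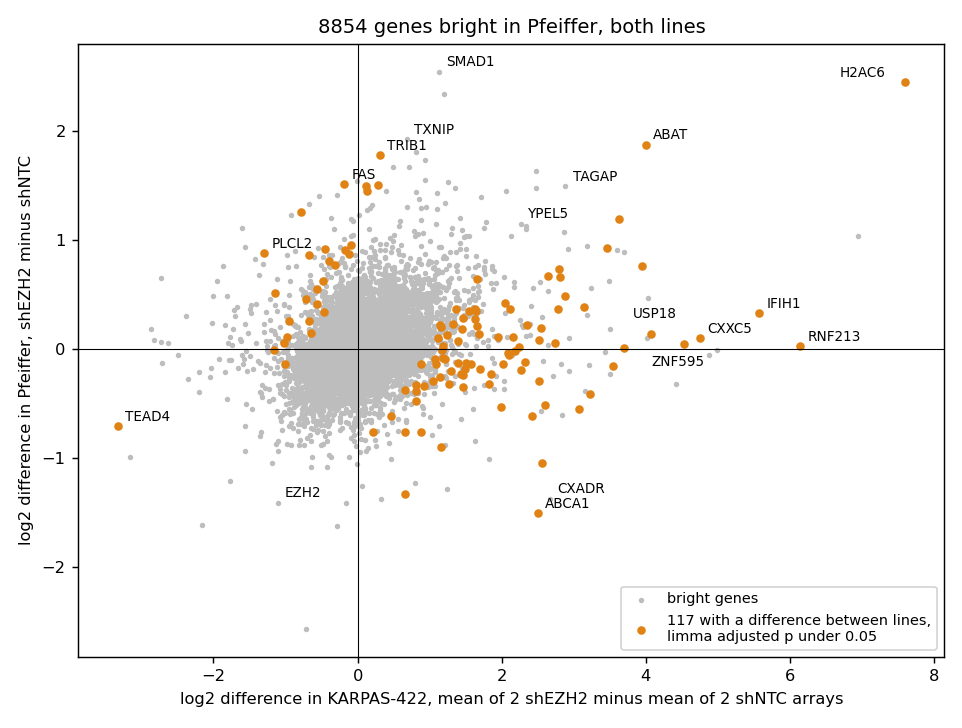
Difference between arms (shEZH2 minus shNTC, log2 units) in Pfeiffer (vertical, 1 array per arm) and KARPAS-422 (horizontal, means of 2 arrays per arm) for 8854 genes bright in Pfeiffer; orange points are the 117 with a called difference between lines. RNF213, IFIH1 and USP18 lie far right near the zero line of Pfeiffer, and ABCA1 lies low on the right, with opposite signs in the lines.

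The difference between lines was called for 50 genes higher in Pfeiffer (0.386% of 12941 tested) and 133 lower (1.03%); among the bright genes these were 28 (0.316%) and 89 (1.01%). Whichever KARPAS-422 shEZH2 array was left out, no gene was called by limma; 1052 and 836 genes (without replicate 1) or 909 and 846 (without replicate 2) then stood at an unadjusted p under 0.05, so every call between lines named here needed both of those arrays. Several large calls were changes in KARPAS-422 with little in Pfeiffer at the probe set read. RNF213, a large ubiquitin ligase, read 9.40 and 9.43 in Pfeiffer and rose by 6.14 ± 0.27 in KARPAS-422, from 3.52 and 3.89 to 10.15 and 9.56. CXXC5, a CpG-binding zinc finger gene, ZNF595, a zinc finger gene, and GNB4, a G protein subunit, were bright in Pfeiffer in both arms (differences of 0.10, 0.04 and −0.15) and rose from dim levels in KARPAS-422 by 4.75, 4.53 and 3.54. Other bright probe sets gave larger Pfeiffer differences for 2 of them: the 3 of GNB4 ran from −0.74 to −0.15 and the 3 of RNF213 from 0.02 to 0.46. For RNF213, CXXC5, ZNF595 and GNB4 the level in the Pfeiffer control arm stood above that of the KARPAS-422 control arm.

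ABCA1 and RIPOR2 had opposite signs in the lines. ABCA1 read lower by 1.51 in Pfeiffer and rose by 2.50 ± 0.17 in KARPAS-422, a difference between lines of −4.01 (limma adjusted p = 0.0037). RIPOR2 read lower by 1.33 and rose by 0.65 there (difference −1.98, limma adjusted p = 0.021). The third lower gene with a call was SPP1, osteopontin, taken after its values were seen (−1.04 in Pfeiffer, 2.55 in KARPAS-422). In the other direction, PLCL2, a phospholipase C-like protein (0.88 in Pfeiffer, −1.29 in KARPAS-422), CMTM3 (0.51, −1.15), the guidance cue SLIT1 (0.87, −0.68) and the adhesion protein VCL, vinculin (0.92, −0.45), read higher in Pfeiffer and fell in KARPAS-422. TRIB1 (1.78, 0.31) and TMEM184C (1.4998, 0.12) read higher in Pfeiffer with no call in KARPAS-422. TEAD4, a Hippo pathway factor, read lower in both, by 0.71 in Pfeiffer and 3.33 in KARPAS-422. Its KARPAS-422 shEZH2 readings, 4.73 and 5.16, were dim, so the size of that fall is uncertain.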

How the data were processed

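RNA was read on Affymetrix HG-U133 Plus 2.0 arrays, and the authors deposited 1 value per probe set and array on a log2 scale. The values were made with MAS5, per the submitters' processing notes; version and scaling target are not given in the sources used here. The log base was found from the values: taken as log2, every array's linear signal has a trimmed mean (2% off each tail) of 500.0. Array medians were 6.29 (Pfeiffer shNTC), 6.41 (Pfeiffer shEZH2) and 6.07 to 6.16 (KARPAS-422). No detection calls were used, and MAS5 values are noisy when dim, hence the minimum of log2 8. The number of arrays limits the precision. The deposited values were used without further normalization.

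Of 54675 probe sets, 41091 had 1 gene symbol in the platform annotation, 1801 several, 11721 none and 62 were controls; 41037 matched the RefSeq gene table by ID. Pfeiffer, with 1 array per arm, was described without a test. limma 3.58.1 (R 4.3.3) fitted 4 groups over 6 arrays, with an intensity trend. The fit took the 12941 genes whose signal exceeded log2 6.21 on 2 or more arrays. This cutoff, the same for every array, was the median with the 6 arrays pooled. In simulated data for the difference between lines over 12941 genes with 200 changed, 47% of 1-unit and 81% of 2-unit changes were recovered, with 8 unchanged genes called. All simulated arrays, Pfeiffer included, had normal noise with the KARPAS-422 replicate spread at their brightness. The simulation therefore cannot test whether the lone Pfeiffer arrays vary like KARPAS-422. Tables and motif searches used Python 3.11.15 and pandas 2.3.3. Alternatives were other brightness minimums, values added before the log, quantile, median and cyclic loess scaling, other probe set rules, and for limma a replicate block, no trend, no filter and leaving out each array.

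The members and the 34 gene lists (894 genes, 807 on the array, 592 bright) were chosen with earlier results of these data known. Named genes were EZH2, EZH1, TXNIP and TNFRSF21; per direction the 15 genes with 2 or more agreeing bright probe sets whose smallest difference was largest, the 6 largest with 1 bright probe set and the 8 largest between lines; and per list up to 3 members past 1 unit or otherwise the 2 largest. Further list members were named to show a list's range. Unnamed gene models, antigen receptor segments and sex-linked marker genes were passed over.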

Additional observations from a re-analysis of the deposited data

Results flagged for a closer look

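For 21 genes chosen by the naming rule, the difference between the lines, Pfeiffer shEZH2 minus shNTC less the same in KARPAS-422, passed limma's adjusted p of 0.05 (list members such as CD79A that also passed stand in the report), and each lost that call under 1 or more alternatives. The response read higher in Pfeiffer, in log2 units, for TEAD4 (2.62), PLCL2 (2.17), FAS (1.70), CMTM3 (1.66), SLIT1 (1.54), TRIB1 (1.47), TMEM184C (1.38) and VCL (1.37). TEAD4 is in this group because it read lower by less in Pfeiffer than it fell in KARPAS-422. It read 4.73 and 5.16 on the KARPAS-422 shEZH2 arrays, under their medians, so the size of its difference rests on dim readings.

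The response was lower in Pfeiffer for RNF213 (−6.12), IFIH1 (−5.24), the histone gene H2AC6 (−5.15), CXXC5 (−4.65), ZNF595 (−4.48), ABCA1 (−4.01), USP18 (−3.94) and GNB4 (−3.70). Smaller differences of that direction were found for ABAT (−2.12), FCRL3 (−2.07), RIPOR2 (−1.98), HLA-F (−1.02) and TRIB2 (−0.97). H2AC6, ABAT, FCRL3 and HLA-F read higher in shEZH2 in both lines, by more in KARPAS-422. RNF213, IFIH1, H2AC6, CXXC5, ZNF595 and GNB4 read between 1.67 and 5.96 on the KARPAS-422 shNTC arrays, so the sizes of their differences rest on dim readings. No explanation of these differences was tested.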

How the results depend on the processing

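Pfeiffer had no replicate, so no alternative tests its spread. Of 1-unit differences, 24 higher and 7 lower were left with a minimum of log2 10, and 1769 and 1191 were counted with none; other settings kept the share higher between 75.0% and 81.1%, against 59.8% with no minimum. Probe set agreement past 0.5 became 95.2% with a minimum of log2 10. Of the alternative list medians, 149 moved by less than the same list's median between KARPAS-422 replicate arrays (root mean square over both arms), 10 by more and 8 turned sign. With that minimum the activation median was 0.21, and those of interferon-stimulated genes (−0.044), PRC2 (−0.014) and CDK inhibitors (0.19) turned sign. With averaged probe sets the MHC class II median was 0.39 and that of other Polycomb genes −0.038. Quantile normalization turned plasma cell (−0.0035), ribosomal (−0.0062) and respiratory (−0.0033) medians, and cyclic loess the histone median (0.00057). Without _x_at and _s_at probe sets HLA-DOB (−0.061) and PPAT (0.19) turned sign.

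Calls between lines rested on the model: 179 higher and 231 lower with a replicate block, 13 and 72 with no filter, and 0 and 1 with no intensity trend, where 779 and 987 stood at an unadjusted limma p under 0.05. Leaving out 1 KARPAS-422 array gave 0 to 121 higher and 0 to 324 lower, with 0 of both without either shEZH2 array, 75 and 279 without shNTC replicate 1 and 121 and 324 without shNTC replicate 2. Deviations of KARPAS-422 samples with the same replicate number correlated at −0.016 over genes, so no shared shift was seen. Whether those samples were prepared together cannot be told from this. KARPAS-422 calls, 1705 and 1593 as reported, ran from 584 to 1643 higher and 464 to 1113 lower when 1 array was left out. Causes were not tested.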

Other observations

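Probe sets with no gene symbol or several were left out of every count above. Of 2256 such probe sets that were bright in Pfeiffer, 18 read higher with shEZH2 by 1 log2 unit or more and 6 lower, against 117 and 31 of the 15130 bright probe sets with 1 gene symbol.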
